A study of Mus musculus with 6 samples.

Results

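Tight, adherens and gap junctions hold epithelial, liver and vessel cells together, and their core proteins belong to 3 gene families, the claudins, the cadherins and the connexins. Claudins seal the gap between neighbouring cells and set which ions pass through it, and connexins form channels from cell to cell. Many cadherins, but not all, bind the same cadherin on the next cell and link to the cytoskeleton through catenins. Each cell type uses its own set, so that hepatocytes, bile duct cells, carcinoma cells and endothelial cells can be told from one another by their junction genes. All rows of the table named Cldn, Cdh or Gj (with a letter from a to e) followed by a number only were taken, 66 of the 55291 genes listed, made up of 23 claudins, 23 cadherins and 20 connexins. The members were sorted, mostly by the tissue in which each is known, into tumour epithelial, hepatocyte, and vessel and stroma genes, with 29 left as others. The tumour epithelial class takes in genes known from epithelia of other organs, such as intestine, stomach or skin. Cdh6 was placed in it after its values were seen.

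The series holds polyadenylated RNA of 6 mouse liver tumours, 1 bulk library each. In the MKO_PD1 group (n = 3) RIL-175/PD-1R tumours grew in mice lacking Trem2, a lipid-sensing receptor, in myeloid cells. The Cre_PD1 group (n = 3) had the same kind of tumour in LysM-Cre mice; the LysM promoter drives Cre in myeloid cells (macrophages, monocytes, neutrophils). Both groups were treated with anti-PD-1, which blocks a receptor that restrains T cells, so no untreated tumour is compared here. What PD-1R stands for is not stated in the labels. RIL-175 is 1 mouse liver cancer cell line, so the cancer cells of all 6 tumours come from 1 source, while vessels and immune cells in the samples belong to the host. Whether hepatocyte RNA came from host liver or from the cancer cells was not tested.

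The libraries held 26747481 to 34265123 recovered reads. Trem2 itself was at 7.68, 17.97 and 6.81 TPM in MKO_PD1 replicates 1, 2 and 3 and 10.5, 16.5 and 14.9 TPM in Cre_PD1 replicates 1, 2 and 3, so the groups overlapped (limma adjusted p = 0.432). Which exons were deleted is not stated, and other cells keep the gene, so this level is no check of the deletion. Hepatocyte markers (12 of 12 genes higher on average in MKO_PD1) summed to 13.1, 3.06 and 9.04% of TPM in MKO_PD1 replicates 1, 2 and 3 and 1.29, 2.41 and 2.40% in Cre_PD1 replicates 1, 2 and 3. Markers of the tumour and bile duct epithelium (0 of 9 higher on average in MKO_PD1) summed to 0.253, 1.01 and 0.684% in MKO_PD1 and 2.52, 1.87 and 1.85% in Cre_PD1. MKO_PD1 replicates 1 and 3 thus stood apart from the other 4 libraries in hepatocyte marker RNA. In bulk RNA fewer cells of a type and less RNA per cell cannot be told apart.

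No claudin, cadherin or connexin gene passed the correction over all genes. In all 3 MKO_PD1 tumours 8 of 12 tested junction genes of the tumour epithelium lay below the control range, against 28.9% of all genes. Cdh17 and Cldn18 were among the 8. That count includes Cdh6, which was placed in this class after its values were seen, and was 7 of 11 without it. It also includes 3 genes that reached 1 TPM in enough libraries to be tested only through the control tumours. Of 8 hepatocyte genes 5, led by the connexin genes Gjb1 and Gjb2 and the claudin gene Cldn3, had higher means in MKO_PD1, and the endothelial cadherin gene Cdh5 had higher values in all 3. Of the 66 members, 31 reached 1 TPM in at least 3 libraries and were tested, and 22 had a mean of at least 5 TPM over the 6 libraries. Limma called 0 of the 31 at an adjusted p under 0.05, against 0.0121% of all 16506 genes tested, and limma voom on recovered reads also called 0. At an unadjusted p under 0.05 stood 6 members higher in MKO_PD1 (19.4%), against 8.47% of all genes, and 12 lower (38.7%), against 19.5%. The groups did not overlap for 3 members higher in MKO_PD1 (9.68%), against 10.1% of all genes, and for 12 lower (38.7%), against 28.9%. The lower ones without overlap include Cldn6, Cldn23, Gjb5 and Gjc1, which passed the filter only through the control tumours. Cldn6, Cldn23 and Gjb5 are also among the 12 lower by unadjusted p. The median log2 difference, MKO_PD1 minus Cre_PD1, was -0.70 for the tested members and -0.42 for all tested genes. Of the tested members 9 lay above 0 (29.0%), against 27.1% of all genes.

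**Figure D1:**
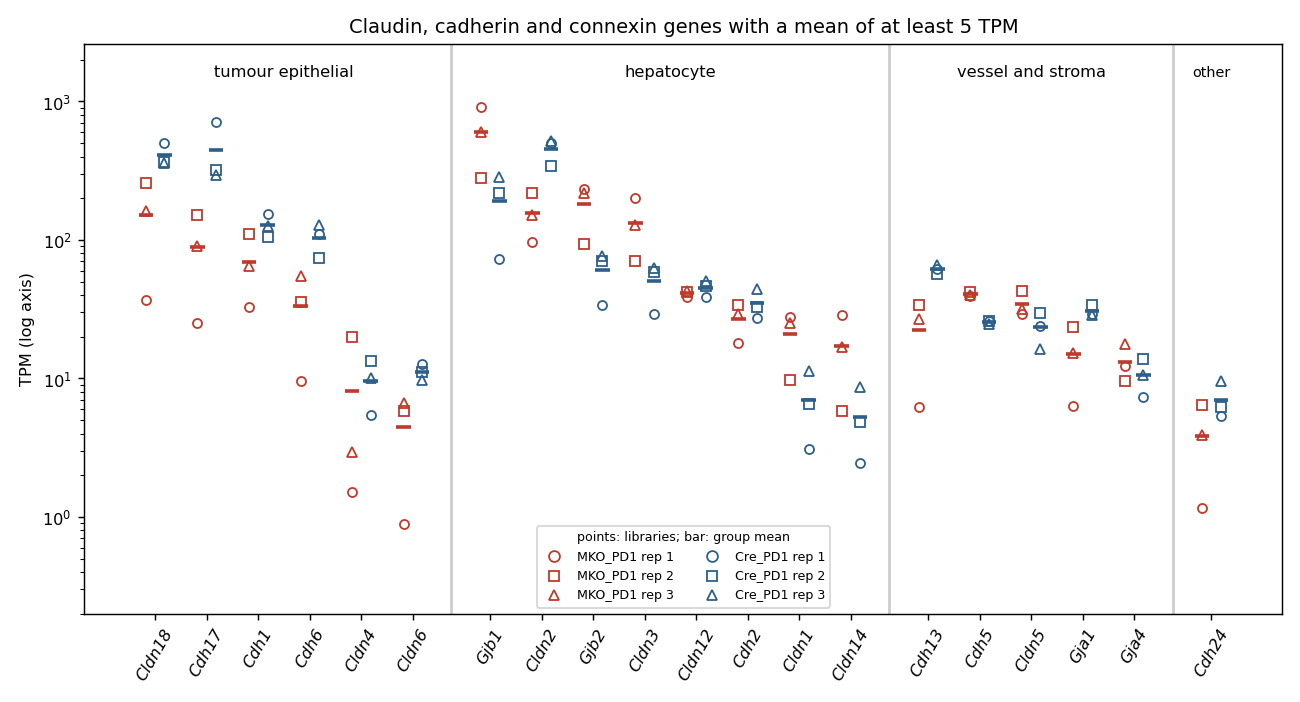
Levels in TPM, on a log axis, of 20 members with a mean of at least 5 TPM, by class; each point is 1 library (MKO_PD1 left and red, Cre_PD1 right and blue) and each bar a group mean of 3 libraries. In all 12 of these members with a negative log2 difference MKO_PD1 replicate 1 is the lowest point of its group, and Cldn2, Cldn12 and Cdh2 part from the other hepatocyte genes.

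Scaling moves these values together. With median-of-ratios factors in place of a fixed total, the median of all genes was -0.018 and that of the members -0.41, and 14 members lay above 0 (48.6% of all genes did). Among the 22 members of at least 5 TPM, Cldn12 and Cdh2 were the only ones to take the opposite sign under that scaling, with log2 differences of 0.35 and 0.083. Without MKO_PD1 replicate 2, the tumour of its group with the least hepatocyte marker RNA, 28 members were tested and 19 passed, 6 higher in MKO_PD1 and 13 lower. In that fit 7.88% of all genes passed as higher and 38.0% as lower. With the median-of-ratios scaling as well, 7 members passed as higher, against 13.8% of all genes, and 4 as lower, against 7.10%. Calls were thus frequent across all genes once that library was left out.

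RefSeq promoters of the build GRCm38.p6 were matched for 19 of the 31 tested members. Printed are the 250 bases before a start of 3 hepatocyte genes, Gjb1, Gjb2 and Cldn3, and of Cldn2 and Cldn18, the most abundant claudin genes of the control tumours, since these sets lay on opposite sides of 0. Cldn4 is added as the neighbour of Cldn3, 39.3 kb away on chromosome 5. Capitals mark matches on either strand to the E-box CAGGTG bound by Snail and Zeb proteins, the half-site GTTAAT of HNF1, the TATA box TATAAA and the GC box GGGCGG. In the printed windows no matches overlap. Of all 32851 promoters in that table, 17.2% hold this E-box, 6.43% the half-site, 12.4% the TATA box and 32.7% the GC box in the same window.
Gjb1, chrX:101383482-101383731, plus strand: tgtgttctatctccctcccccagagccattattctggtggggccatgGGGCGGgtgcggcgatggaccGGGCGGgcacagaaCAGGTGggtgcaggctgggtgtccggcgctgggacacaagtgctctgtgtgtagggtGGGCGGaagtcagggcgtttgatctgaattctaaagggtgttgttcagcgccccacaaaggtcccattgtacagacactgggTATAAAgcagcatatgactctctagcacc
Gjb2, chr14:57104703-57104952, minus strand: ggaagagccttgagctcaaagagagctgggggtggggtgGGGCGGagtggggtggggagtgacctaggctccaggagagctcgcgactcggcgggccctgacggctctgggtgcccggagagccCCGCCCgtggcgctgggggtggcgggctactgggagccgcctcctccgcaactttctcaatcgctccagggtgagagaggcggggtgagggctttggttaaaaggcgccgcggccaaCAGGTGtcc
Cldn3, chr5:134985964-134986213, plus strand: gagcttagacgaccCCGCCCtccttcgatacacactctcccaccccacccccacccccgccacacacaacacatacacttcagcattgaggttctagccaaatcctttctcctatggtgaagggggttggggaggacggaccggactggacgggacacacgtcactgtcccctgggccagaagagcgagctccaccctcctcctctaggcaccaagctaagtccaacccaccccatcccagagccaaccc
Cldn4, chr5:134946935-134947184, minus strand: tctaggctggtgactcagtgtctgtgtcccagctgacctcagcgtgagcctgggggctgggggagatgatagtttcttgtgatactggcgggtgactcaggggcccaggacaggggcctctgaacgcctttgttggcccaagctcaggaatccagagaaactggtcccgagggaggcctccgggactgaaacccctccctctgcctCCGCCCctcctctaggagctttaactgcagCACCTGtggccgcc
Cldn2, chrX:139800558-139800807, plus strand: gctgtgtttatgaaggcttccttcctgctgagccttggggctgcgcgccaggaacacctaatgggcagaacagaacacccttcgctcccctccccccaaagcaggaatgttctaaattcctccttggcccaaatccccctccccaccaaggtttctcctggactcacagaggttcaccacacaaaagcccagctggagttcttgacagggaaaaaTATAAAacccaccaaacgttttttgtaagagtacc
Cldn18, chr9:99717268-99717517, minus strand: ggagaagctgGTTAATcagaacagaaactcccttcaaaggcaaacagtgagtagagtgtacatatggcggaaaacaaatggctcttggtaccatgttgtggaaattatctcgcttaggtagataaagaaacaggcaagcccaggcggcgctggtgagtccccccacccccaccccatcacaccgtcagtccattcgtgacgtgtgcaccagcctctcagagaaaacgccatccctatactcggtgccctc
A TATA box lies 29 bases before the start in Gjb1 and 35 bases before it in Cldn2, and 3 GC boxes lie before Gjb1 and 2 before Gjb2. The 2 connexin promoters and that of Cldn4 hold an E-box, and that of Cldn18 the HNF1 half-site. The half-site was also found before another start of Gjb1 and before Cldn1 and Cldn14, which are not printed, and the other start of Cldn18 had no match, so it did not separate the sets. Gjb1 has 4 starts in that table, of which the one with the most matches is shown, and Cldn18 has 2, of which the upstream one is shown. Gene totals do not show which start was used, and a match is not a measured binding site.

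The tumour epithelial genes held the lowest values of MKO_PD1 relative to Cre_PD1. Together the 21 genes of this class summed to 123, 669.6 and 429 TPM in MKO_PD1 replicates 1, 2 and 3 and to 1608, 1027 and 1146 TPM in Cre_PD1 replicates 1, 2 and 3. The summed epithelial markers had the same order within MKO_PD1, replicate 2 above 3 above 1, and their part in these differences was not tested. Of the 12 tested, 0 had a log2 difference above 0, against 27.1% of all genes, and 1 of them, Cdh3, was above 0 with median-of-ratios scaling. The other 9 reached 1 TPM in too few libraries. Of the 12, Cldn6, Cldn7, Cldn23, Cdh3 and Gjb5 reached 1 TPM in fewer than 3 MKO_PD1 libraries and in all 3 Cre_PD1 libraries, so they passed the filter only through the control tumours, where most of them are higher. These 5 hold 3 of the 8 genes below the control range, and the counts over the class are a description. Of the 8 genes with a mean of at least 5 TPM over all libraries, which include Cldn6 and Cdh6, 6 lay below the control range, and 5 of 7 did without Cdh6. Of all tested genes 28.9% lay below the control range in the same way.

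Cdh17 encodes liver-intestine cadherin, which in the mouse is known from the intestine (ENSMUSG00000028217.11, chromosome 4, 11758147 to 11817895). It was at 25.3, 152 and 89.8 TPM in MKO_PD1 replicates 1, 2 and 3, against 712, 322 and 295 TPM in Cre_PD1 replicates 1, 2 and 3. Every MKO_PD1 tumour lay below every Cre_PD1 tumour, and MKO_PD1 replicate 1 was the lowest of all. The log2 difference was -2.52 ± 0.64 SE, the lowest of the 31 (limma adjusted p = 0.168, range 0.0290 to 0.410 over the alternatives), and -2.05 with median-of-ratios scaling. Cdh17 was the leading cadherin of the control tumours.

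Cldn18 encodes a claudin of stomach and lung epithelium (ENSMUSG00000032473.13, chromosome 9, 99689461 to 99717267). Its values were 36.96, 256 and 161 TPM in the MKO_PD1 tumours and 505, 368 and 361 TPM in the Cre_PD1 tumours, in replicate order. The groups did not overlap, and MKO_PD1 replicate 2 came nearest to the controls. The log2 difference was -1.80 ± 0.64 SE (limma adjusted p = 0.168). Without MKO_PD1 replicate 2 it was -2.38 and passed (limma adjusted p = 0.0292, range 0.0292 to 0.410 over the alternatives), in a fit where 38.0% of all genes passed as lower. With median-of-ratios scaling and the same omission it was -1.66 and did not pass (limma adjusted p = 0.0530).

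Cdh6, a cadherin gene of developing kidney, was at 9.62, 35.95 and 54.9 TPM in MKO_PD1, against 109.5, 73.6 and 129 TPM in Cre_PD1 (log2 difference -1.87 ± 0.58 SE, limma adjusted p = 0.168). Here replicate 3 and not replicate 2 was the highest of the MKO_PD1 tumours, and the groups did not overlap. Cdh1 encodes E-cadherin, the cadherin of most epithelia, hepatocytes around the portal vein included. It was at 33.1, 111 and 64.4 TPM in MKO_PD1, against 154, 104.7 and 125 TPM in Cre_PD1 (log2 difference -1.02 ± 0.43 SE, limma adjusted p = 0.174). MKO_PD1 replicate 2 lay inside the control range, so the groups overlapped.

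Gjb5, a connexin gene known from skin, was at 0.133, 2.56 and 0.714 TPM in MKO_PD1, against 2.57, 3.44 and 3.12 TPM in Cre_PD1 (log2 difference -1.08 ± 0.43 SE, limma adjusted p = 0.169). The groups did not overlap, but MKO_PD1 replicate 2 was nearly level with Cre_PD1 replicate 1, and MKO_PD1 replicates 1 and 3 were under 1 TPM.

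The remaining claudin genes of this class were less abundant. Cldn6, a claudin gene of embryonic epithelium, was at 0.886, 5.81 and 6.70 TPM in MKO_PD1, against 12.6, 11.2 and 9.68 TPM in Cre_PD1 (log2 difference -1.39 ± 0.53 SE, limma adjusted p = 0.168). Its groups did not overlap. Cldn4, a claudin of many simple epithelia, was at 1.51, 20.002 and 2.97 TPM in MKO_PD1, against 5.42, 13.4 and 10.1 TPM in Cre_PD1 (log2 difference -0.76 ± 0.75 SE, limma adjusted p = 0.469). The highest and the lowest of all 6 values both belonged to MKO_PD1, and the difference took the opposite sign without MKO_PD1 replicates 1 and 3. Cldn7, another epithelial claudin gene, averaged 2.68 ± 2.68 TPM in MKO_PD1 and 4.68 ± 2.94 TPM in Cre_PD1 (SD, n = 3 each). Cldn23 averaged 1.24 ± 0.572 TPM in MKO_PD1 and 2.78 ± 0.347 TPM in Cre_PD1, without overlap. Cdh3, the P-cadherin gene beside Cdh1 on chromosome 8, averaged 2.10 ± 2.26 TPM in MKO_PD1 and 1.72 ± 0.378 TPM in Cre_PD1, although its log2 difference was -0.03.

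Of the 8 genes sorted as hepatocyte junction genes, 5 were higher on average in MKO_PD1 and 3 were not, and all 8 were tested. The class summed to 1563, 758 and 1213 TPM in MKO_PD1 replicates 1, 2 and 3 and to 706, 779 and 1052 TPM in Cre_PD1 replicates 1, 2 and 3. Those sums overlapped between the groups. The 5 higher genes shared 1 order of the 6 tumours within each group, with MKO_PD1 replicate 1 above 3 above 2, and Cre_PD1 replicate 3 above 2 above 1. The summed hepatocyte markers had the same order in MKO_PD1 and were lowest in Cre_PD1 replicate 1, and their part in these differences was not tested.

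Gjb1 encodes the main connexin of hepatocyte gap junctions (ENSMUSG00000047797.14, chromosome X, 101376378 to 101385629) and was the most abundant of the 66 genes. It was at 917, 282 and 602 TPM in MKO_PD1 replicates 1, 2 and 3, against 72.3, 217 and 283 TPM in Cre_PD1 replicates 1, 2 and 3. MKO_PD1 replicates 1 and 3 were above all controls, while MKO_PD1 replicate 2 and Cre_PD1 replicate 3 were nearly level and made the groups overlap. The log2 difference was 1.70 ± 0.60 SE (limma adjusted p = 0.168) and 2.18 with median-of-ratios scaling.

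Gjb2 encodes the second hepatocyte connexin, which joins Gjb1 channels. It was at 234, 93.7 and 219 TPM in MKO_PD1, against 33.8, 70.1 and 76.96 TPM in Cre_PD1, and the groups did not overlap (log2 difference 1.56 ± 0.45 SE, limma adjusted p = 0.168). Cldn3, a claudin gene of hepatocytes and bile ducts (ENSMUSG00000070473.4, chromosome 5, 134986214 to 134987472), was at 202, 70.9 and 128 TPM in MKO_PD1, against 29.4, 58.3 and 62.9 TPM in Cre_PD1. Every MKO_PD1 value lay above every control value, with MKO_PD1 replicate 2 just above Cre_PD1 replicate 3 (log2 difference 1.34 ± 0.44 SE, limma adjusted p = 0.168). The gene Wbscr25 overlaps Cldn3 on the opposite strand and was under 0.1 TPM in every library.

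Cldn1, a sealing claudin gene of hepatocytes and many epithelia, was at 27.7, 9.72 and 25.2 TPM in MKO_PD1, against 3.11, 6.57 and 11.3 TPM in Cre_PD1 (log2 difference 1.46 ± 0.52 SE, limma adjusted p = 0.168). Cldn14, a claudin gene of the inner ear, kidney and liver, was at 28.6, 5.78 and 16.8 TPM in MKO_PD1, against 2.45, 4.85 and 8.63 TPM in Cre_PD1 (log2 difference 1.40 ± 0.59 SE, limma adjusted p = 0.175). In both genes MKO_PD1 replicate 2 fell inside the control range, and MKO_PD1 replicates 1 and 3 were above it.

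Cldn2 encodes a claudin that forms cation channels, known in mouse liver from hepatocytes around the central vein and from bile ducts (ENSMUSG00000047230.6, chromosome X, 139800828 to 139811386). It was at 97.1, 219.8 and 151 TPM in MKO_PD1 replicates 1, 2 and 3, against 499, 343 and 515 TPM in Cre_PD1 replicates 1, 2 and 3. The groups did not overlap, and the lowest value stood in MKO_PD1 replicate 1, the library with the most hepatocyte marker RNA. The log2 difference was -1.58 ± 0.35 SE, with the smallest unadjusted p of the 31 members (limma adjusted p = 0.168, range 0.0290 to 0.410 over the alternatives). Cldn2 thus lay lower in MKO_PD1, as the tumour epithelial genes did, and Cldn1, Cldn3 and Cldn14 had the opposite sign.

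Cldn12, a widely expressed claudin gene, was at 38.5, 42.3 and 43.1 TPM in MKO_PD1, against 38.5, 46.2 and 50.3 TPM in Cre_PD1 (log2 difference -0.12 ± 0.23 SE, limma adjusted p = 0.727), with all 6 tumours within a narrow range. Cdh2, the N-cadherin gene of hepatocytes and of mesenchymal and nerve cells, was at 17.98, 33.8 and 29.05 TPM in MKO_PD1, against 27.5, 32.9 and 44.02 TPM in Cre_PD1 (log2 difference -0.38 ± 0.32 SE, limma adjusted p = 0.404). Both had overlapping groups and both were above 0 with median-of-ratios scaling.

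**Figure D2:**
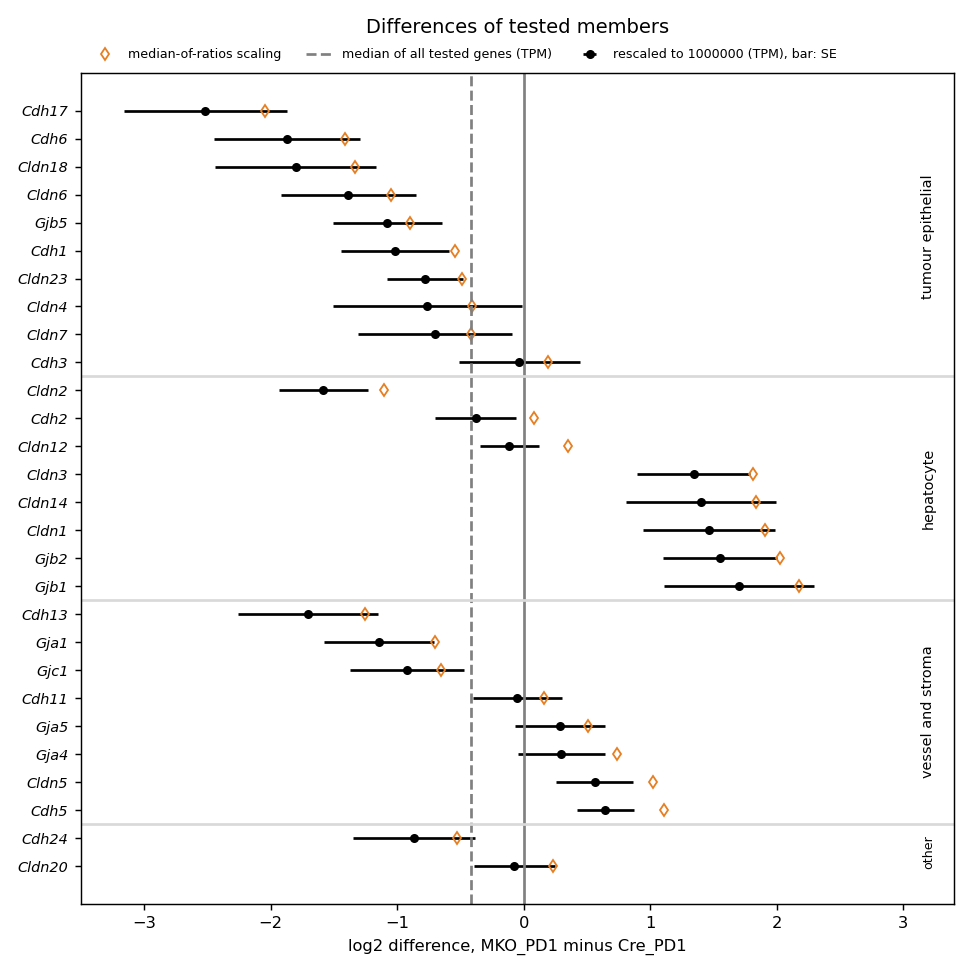
Log2 differences, MKO_PD1 minus Cre_PD1, of 28 tested members by class, with the SE of the limma fit on log2(TPM + 1), and the same differences with median-of-ratios scaling as open diamonds; the dashed line is the median of all tested genes at -0.42. Scaling shifts the diamonds to the right without changing the order of the classes, and Cldn2 lies with the tumour epithelial genes.

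The vessel and stroma genes split. Cdh5 encodes VE-cadherin, the cadherin of endothelial cells (ENSMUSG00000031871.9, chromosome 8, 104101625 to 104144511). It was at 39.4, 42.1 and 39.8 TPM in MKO_PD1 replicates 1, 2 and 3, against 25.9, 25.8 and 24.7 TPM in Cre_PD1 replicates 1, 2 and 3. Both groups were narrow and did not overlap, and MKO_PD1 replicate 2 was level with replicates 1 and 3. The log2 difference was 0.65 ± 0.22 SE (limma adjusted p = 0.168, range 0.0283 to 0.410 over the alternatives).

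Cldn5, the claudin gene of endothelial tight junctions, was at 29.3, 42.5 and 31.7 TPM in MKO_PD1, against 24.1, 29.9 and 16.4 TPM in Cre_PD1 (log2 difference 0.56 ± 0.30 SE, limma adjusted p = 0.229). MKO_PD1 replicate 1 lay just under Cre_PD1 replicate 2, so the groups overlapped. Gja4, a connexin gene of arterial endothelium, was at 12.3, 9.62 and 17.8 TPM in MKO_PD1, against 7.35, 13.7 and 10.6 TPM in Cre_PD1 (log2 difference 0.30 ± 0.34 SE, limma adjusted p = 0.539), with overlapping groups. The arterial connexin gene Gja5 averaged 1.23 ± 0.575 TPM in MKO_PD1 and 0.865 ± 0.604 TPM in Cre_PD1 (SD, n = 3 each), and it overlaps Gpr89 on the other strand, which was at 10.6 to 16.1 TPM. Whether counting used strand is not stated, so reads of the 2 genes cannot be told apart. The 10 endothelial markers summed to 146, 161 and 164 TPM in MKO_PD1 and 90.2, 111 and 93.7 TPM in Cre_PD1, with 9 of 10 higher on average in MKO_PD1 and none at 0. Their part in the Cdh5 difference was not tested.

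Cdh13 and Gja1 went the other way. Cdh13, the gene of T-cadherin, a cadherin held in the membrane by a lipid anchor and known from vessel walls, was at 6.22, 34.03 and 26.8 TPM in MKO_PD1, against 62.1, 56.9 and 65.7 TPM in Cre_PD1 (log2 difference -1.70 ± 0.55 SE, limma adjusted p = 0.168). Gja1, the most widely expressed connexin gene, was at 6.30, 23.6 and 15.2 TPM in MKO_PD1, against 29.1, 34.1 and 28.7 TPM in Cre_PD1 (log2 difference -1.15 ± 0.43 SE, limma adjusted p = 0.168). In both, no MKO_PD1 tumour reached the control range, and MKO_PD1 replicate 1 was far below the others, as in Cldn18 and Cdh17. Which cells of these tumours expressed Cdh13 and Gja1 was not tested. Gjc1, a connexin gene of vessel walls and heart, averaged 2.19 ± 1.61 TPM in MKO_PD1 and 4.48 ± 0.939 TPM in Cre_PD1, without overlap. It was at 0.457 TPM in MKO_PD1 replicate 1. Gjc1 reached 1 TPM in 2 MKO_PD1 and 3 Cre_PD1 libraries, so it too passed the filter only through the control tumours. Cdh11, a cadherin gene of fibroblasts, averaged 1.24 ± 0.891 TPM in MKO_PD1 and 1.23 ± 0.390 TPM in Cre_PD1 (log2 difference -0.05). The 8 fibroblast and stellate markers summed to 159, 2162 and 571 TPM in MKO_PD1 and 709.6, 1128 and 777 TPM in Cre_PD1, highest in MKO_PD1 replicate 2.

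Of the 29 other members 3 were tested. Cdh24, a cadherin gene whose product binds catenins, was at 1.16, 6.42 and 3.90 TPM in MKO_PD1, against 5.33, 6.18 and 9.52 TPM in Cre_PD1 (log2 difference -0.87 ± 0.48 SE, limma adjusted p = 0.236). Its groups overlapped through MKO_PD1 replicate 2. Cldn20 averaged 1.39 ± 0.182 TPM in MKO_PD1 and 1.61 ± 0.885 TPM in Cre_PD1. Among the 35 untested members of all classes, 22 had between 1 and 223 reads over the 6 libraries, and none averaged above 0.836 TPM, the value of Cldn15. The other 13, which include the lens connexin genes Gja3 and Gje1 and the nerve cadherin genes Cdh7, Cdh8, Cdh12, Cdh19 and Cdh20, had 0 reads in every library. For a gene with 1 kb of exon, 3 reads in a library amount to 0.229 to 0.342 TPM, so values near or under that rest on a few reads.

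Within a library the make-up of each family does not depend on scaling. Cldn2 and Cldn18 together took 28.7, 69.6 and 54.5% of all claudin TPM in MKO_PD1 replicates 1, 2 and 3, against 89.2, 79.7 and 82.8% in Cre_PD1 replicates 1, 2 and 3. Cldn1, Cldn3 and Cldn14 took 55.4, 12.6 and 29.6% in MKO_PD1, against 3.10, 7.82 and 7.83% in Cre_PD1. In MKO_PD1 replicate 1 Cldn1, Cldn3 and Cldn14 together made up more than Cldn2 and Cldn18, and in each of the other 5 tumours they made up less. Cldn2, itself sorted as a hepatocyte gene, was paired with Cldn18 here after its values were seen.

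The connexins showed the same split. Gjb1 and Gjb2 took 97.1, 76.4 and 90.9% of connexin TPM in MKO_PD1, against 42.3, 61.6 and 58.9% in Cre_PD1. That share did not overlap between the groups. Among cadherins Cdh17 alone took 18.8, 35.8 and 28.8% in MKO_PD1, against 64.7, 51.4 and 42.2% in Cre_PD1, and Cdh5 took 29.2, 9.95 and 12.8% in MKO_PD1, against 2.35, 4.12 and 3.53% in Cre_PD1. Cdh1 took 24.6, 26.2 and 20.6% of cadherin TPM in MKO_PD1, against 14.01, 16.7 and 17.9% in Cre_PD1, a larger share on a smaller total. Cadherin TPM summed to 135, 423 and 312 in MKO_PD1 and 1101, 626 and 699.7 in Cre_PD1. These groupings were chosen after the values were seen and carry no test.

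**Figure D3:**
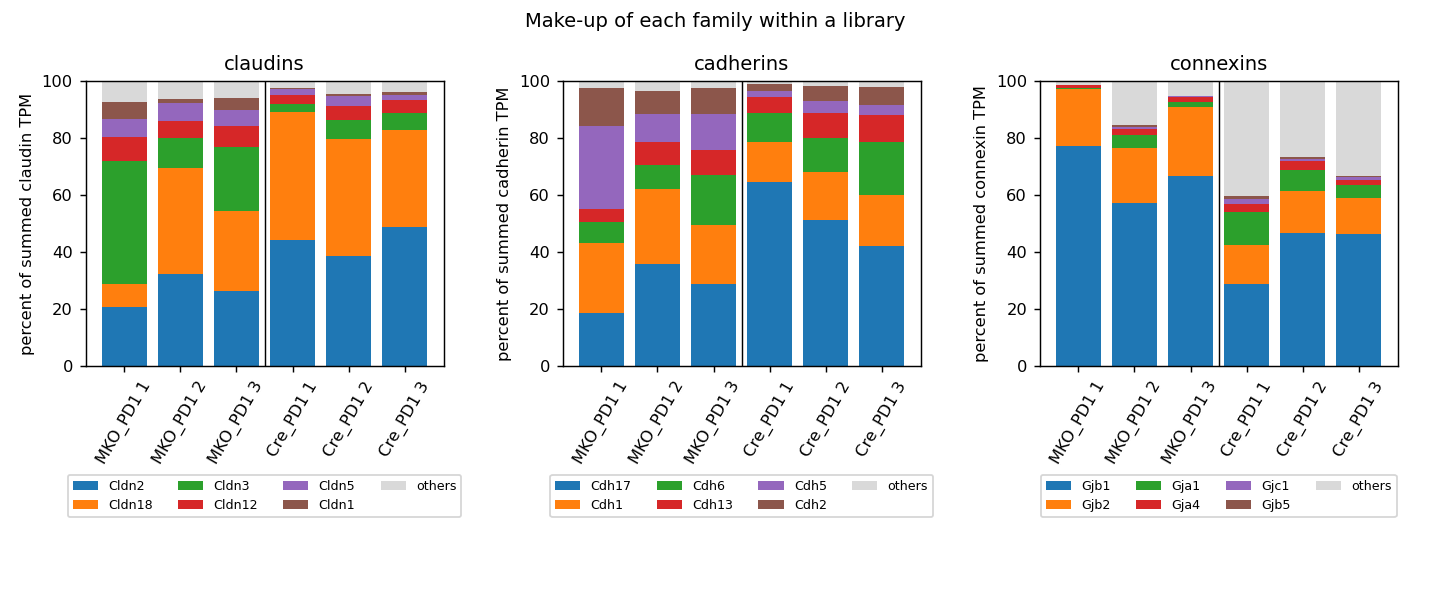
Share of each family's summed TPM taken by leading genes, 1 bar per library, MKO_PD1 left of the line and Cre_PD1 right of it, with all others in grey. Cldn2 and Cldn18 fill 79.7 to 89.2% of the claudin bars in Cre_PD1 and 28.7 to 69.6% in MKO_PD1.

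Pairs of genes were compared as log2 ratios of TPM + 1 within a library, 12 ratios in all, by exact two-sided permutation over the 6 tumours, which cannot give a p below 0.1 for 3 against 3. On this scale the groups did not overlap for 3 of the 12. Gjb1 over Gja1, hepatocyte against widespread connexin, was 6.97, 3.53 and 5.22 in MKO_PD1 and 1.28, 2.63 and 3.26 in Cre_PD1 (difference 2.85, exact p = 0.1, adjusted p = 0.4). Cldn1 over Cldn2 was -1.77, -4.36 and -2.54 in MKO_PD1 and -6.93, -5.51 and -5.39 in Cre_PD1 (difference 3.05, exact p = 0.1, adjusted p = 0.4). Both ratios were higher in 3 of 3 MKO_PD1 tumours. Cdh1 over Cdh3 was 4.40, 4.30 and 5.04 in MKO_PD1 and 5.67, 5.24 and 5.78 in Cre_PD1 (difference -0.98, exact p = 0.1, adjusted p = 0.4). Cdh3 itself was at 0.609, 4.70 and 0.992 TPM in MKO_PD1 and 2.04, 1.80 and 1.30 TPM in Cre_PD1. The added 1 thus sets much of the Cdh1 over Cdh3 ratio, and its lack of overlap rests on that choice.

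The other 9 ratios overlapped between the groups. The hepatocyte pair Gjb1 over Gjb2 was 1.97, 1.58 and 1.46 in MKO_PD1 and 1.08, 1.62 and 1.87 in Cre_PD1, and Gjb1 over the albumin gene Alb was -6.09, -5.43 and -6.06 in MKO_PD1 and -6.17, -5.33 and -4.98 in Cre_PD1. Cdh1 over Cdh2, E-cadherin against N-cadherin, was 0.84, 1.69 and 1.12 in MKO_PD1 and 2.44, 1.64 and 1.49 in Cre_PD1 (exact p = 0.3, adjusted p = 0.72). The neighbours Cldn3 over Cldn4 were at 6.34, 1.78 and 5.02 in MKO_PD1 and 2.24, 2.04 and 2.53 in Cre_PD1, with MKO_PD1 replicate 2 below all controls and the other two above them. The vessel ratio Cldn5 over Cdh5 was -0.41, 0.01 and -0.32 in MKO_PD1 and -0.10, 0.20 and -0.57 in Cre_PD1, with overlapping groups.

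Members were also set against the summed markers of a tissue in the same library, as log2(gene TPM / summed marker TPM). This comparison was added after the values were seen and is given without a test. Cldn2, sorted as a hepatocyte gene, was set against epithelial markers. Cldn12 and Gja1 are widely expressed, so the markers used do not stand for all cells that express them. Which cells expressed Cdh13 was not tested, so its ratio to endothelial markers does not measure a change within vessel cells. Alb makes up 36.5 to 47.8% of the hepatocyte sum and the secreted phosphoprotein gene Spp1 42.4 to 57.9% of the epithelial sum. Against hepatocyte markers Gjb1 was at -7.16, -6.76 and -7.23 in MKO_PD1 and -7.48, -6.80 and -6.40 in Cre_PD1, and Gjb2 was at -9.13, -8.35 and -8.69 in MKO_PD1 and -8.58, -8.42 and -8.28 in Cre_PD1. Cldn1, Cldn3 and Cldn14 overlapped between the groups in the same way. Cldn12 did not, at -11.73, -9.50 and -11.04 in MKO_PD1 and -8.39, -9.03 and -8.90 in Cre_PD1. Its own values ran only from 38.5 to 50.3 TPM over the libraries, while the hepatocyte sum ran from 12929 to 130925 TPM. The Cldn12 ratio thus mirrors the sum under it.

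Against epithelial markers Cldn18 was at -6.10, -5.31 and -5.40 in MKO_PD1 and -5.64, -5.67 and -5.68 in Cre_PD1, where the 3 controls were nearly identical. Cldn2, at -4.70, -5.53 and -5.50 in MKO_PD1 and -5.66, -5.77 and -5.17 in Cre_PD1, also overlapped, as did Cdh6, Cldn4 and Cldn6. Cdh17 stayed below all controls, at -6.64, -6.06 and -6.25 in MKO_PD1 and -5.15, -5.86 and -5.97 in Cre_PD1, but by little between MKO_PD1 replicate 2 and Cre_PD1 replicate 3. Cdh1 was the other way, at -6.26, -6.51 and -6.73 in MKO_PD1 and -7.35, -7.48 and -7.21 in Cre_PD1, and hepatocytes also express it. Against endothelial markers Cdh5 was level, at -1.89, -1.94 and -2.04 in MKO_PD1 and -1.80, -2.11 and -1.92 in Cre_PD1. Cdh13, at -4.55, -2.24 and -2.61 in MKO_PD1 and -0.54, -0.97 and -0.51 in Cre_PD1, and Gja1, at -4.53, -2.77 and -3.43 in MKO_PD1 and -1.63, -1.70 and -1.71 in Cre_PD1, were lower in all 3 MKO_PD1 tumours.

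**Figure D4:**
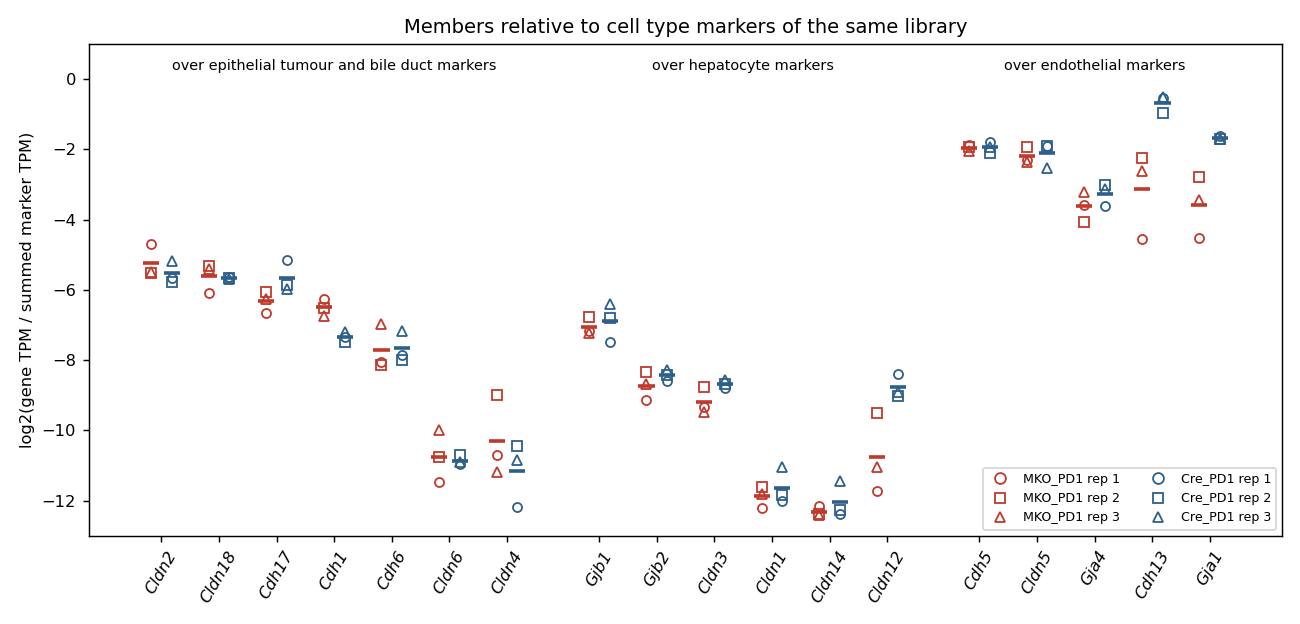
Log2 of each gene's TPM over the summed TPM of markers of epithelium, hepatocytes or endothelium in the same library; points are libraries (MKO_PD1 left and red, Cre_PD1 right and blue) and bars group means of 3. Gjb1, Gjb2, Cldn3, Cldn18 and Cdh5 overlap between the groups, while Cdh17, Cldn12, Cdh13 and Gja1 lie lower and Cdh1 higher in MKO_PD1. Cldn12 itself was nearly level in TPM, so its ratio mirrors the hepatocyte sum.

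Beyond the 3 families, 55 other junction genes and their regulators were listed, of which 47 were tested and 0 passed with limma, against 0.0121% of all genes. Their median log2 difference was -0.26, against -0.42 for all genes, with 15 above 0 and 32 below, and 26 above 0 with median-of-ratios scaling. At an unadjusted p under 0.05 stood 8 of the 47 higher, against 8.47% of all genes, and 8 lower, against 19.5%. Of the 7 tested desmosome genes Dsc2, Perp, Dsp and Dsg2 had positive log2 differences and non-overlapping groups. Of all tested genes 10.1% lay higher without overlap and 28.9% lower. The other desmosome genes had negative ones, -0.58 for Pkp2, whose groups did not overlap, -0.35 for Pkp4 and -0.15 for Pkp3. With median-of-ratios scaling Pkp3 was at 0.23 and Pkp4 was at 0.11. Dsc2, a desmosomal cadherin, was at 21.5, 13.3 and 20.6 TPM in MKO_PD1, against 6.32, 7.21 and 8.52 TPM in Cre_PD1 (log2 difference 1.20 ± 0.30 SE, limma adjusted p = 0.168). Marveld2, which seals the corners where 3 cells meet, was at 13.2, 7.99 and 12.02 TPM in MKO_PD1, against 2.62, 4.19 and 5.60 TPM in Cre_PD1 (log2 difference 1.25 ± 0.35 SE, limma adjusted p = 0.168). The adhesion gene Nectin1 was at 13.3, 9.03 and 14.8 TPM in MKO_PD1, against 3.85, 6.05 and 6.95 TPM in Cre_PD1 (log2 difference 1.02 ± 0.33 SE, limma adjusted p = 0.168). In all 3 the groups did not overlap, and MKO_PD1 replicate 2 was the lowest of its group, as in the hepatocyte connexins.

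The catenins that tie cadherins to actin lay the other way. Ctnnb1, encoding beta-catenin, was at 129, 336 and 287 TPM in MKO_PD1, against 624, 506 and 594 TPM in Cre_PD1 (log2 difference -1.30 ± 0.39 SE, limma adjusted p = 0.168). Ctnna1, encoding alpha-catenin, was at 60.4, 168 and 123 TPM in MKO_PD1, against 271, 204 and 247 TPM in Cre_PD1 (log2 difference -1.14 ± 0.39 SE, limma adjusted p = 0.168). The groups overlapped for neither, and MKO_PD1 replicate 1 was the lowest for both. Twist2, a transcription factor of mesenchymal cells, was at 1.01, 5.77 and 3.37 TPM in MKO_PD1, against 10.5, 9.92 and 9.09 TPM in Cre_PD1 (log2 difference -1.47 ± 0.45 SE, limma adjusted p = 0.168). Its groups did not overlap. Snai1, Zeb1 and Zeb2, which are known to repress Cdh1, had overlapping groups, with limma adjusted p of 0.872, 0.241 and 0.690. Of the 14 regulators listed 10 were tested. Without overlap 2 of them lay lower, Twist2 and Klf5 (log2 difference -1.86), against 28.9% of all genes. Esrp2 (log2 difference 0.70) was the 1 that lay higher without overlap, against 10.1% of all genes. Limma adjusted p was 0.168 for Klf5 and Esrp2. Among the other abundant partners, the tight junction gene F11r averaged 146 ± 41.7 TPM in MKO_PD1 and 225 ± 9.20 TPM in Cre_PD1 and the scaffold gene Tjp1 43.3 ± 25.01 TPM in MKO_PD1 and 101 ± 47.4 TPM in Cre_PD1 (SD, n = 3 each). Nectin2 averaged 52.4 ± 10.9 TPM in MKO_PD1 and 77.01 ± 7.29 TPM in Cre_PD1, and the adhesion gene Cxadr 42.4 ± 8.46 TPM in MKO_PD1 and 61.9 ± 11.4 TPM in Cre_PD1. Tjp1 overlapped between the groups, and F11r, Nectin2 and Cxadr did not.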

How the data were processed

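Polyadenylated RNA of 6 tumours was sequenced, 3 per group by the sample titles. The submitters' processing notes name STAR 2.7.10a, featureCounts 2.0.3 of Subread and the build mm10. The authors' deposited values are named TPM but are a length-normalised read signal whose column sums ranged from 70363 to 105281. How the authors made it from counts is not given in the sources used here. Values times exon length (GENCODE M21, GRCm38) were whole multiples of 8.03 within 0.001 reads for 98.5% of 29802 genes with a length and a value, so reads were recovered, all 66 members included. They count reads, not molecules.

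Each column was rescaled to 1000000 (TPM). Genes reaching 1 TPM in 3 or more libraries were tested with limma 3.58.1 in R 4.3.3 on log2(TPM + 1), with its mean-variance trend, Benjamini-Hochberg adjustment and no covariates (threshold 0.05) over 16506 genes. The pseudocount of 1 shrinks differences of low genes. The procedure was also run on simulated counts, which lacked the large differences between tumours of a group seen here. That run does not show how the test behaves on these data. The design assumed TPM and the test was kept on the rescaled signal. No label gives a batch, and the design text gives 3 mice per group. No 2 libraries held identical values (Pearson correlations of log2(TPM + 1) across genes 0.787 to 0.977).

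Members with a mean of at least 5 TPM, and the 6 tested members of smallest p, are given by library, except 3 members that are not reported here and enter only sums and counts. Of the partner list, the 6 of smallest p and the 6 most abundant are named. Perp, Dsp, Dsg2, Pkp2, Pkp3, Pkp4, Snai1, Zeb1, Zeb2, Klf5 and Esrp2 were added after their values were seen. The members and lists were chosen with earlier results of these data known, and Cdh6 was moved to the tumour epithelial class after its values were seen. Alternatives changed the pseudocount (0.1, 0.5), filter (none, 5 TPM), scaling (median-of-ratios, or without 12 hepatocyte markers), trend, threshold (0.1), replicate block, limma voom on recovered reads and each library in turn. The fits without MKO_PD1 replicates 1 and 3, and with median-of-ratios scaling without MKO_PD1 replicate 2, were added after seeing the data.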

Additional observations from a re-analysis of the deposited data

How the results depend on the processing

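The count of members past the threshold was 0 in all fits but 2 of those run, with 0 to 19 over the fits leaving out 1 library (19 without MKO_PD1 replicate 2) and 11 with median-of-ratios scaling as well as that omission. Partner genes likewise gave 0 but for 0 to 20 and 13. All genes past the threshold numbered 2, with 0 without a filter, with 5 TPM, with the replicate block and with limma voom, 1 with median-of-ratios scaling and without MKO_PD1 replicates 1 and 3, 0 to 7314 leaving out 1 library and 3325 with both changes. Same-numbered tumours did not deviate alike from their group means across genes (correlations -0.42, -0.26 and 0.049), which does not test whether they shared a batch. Under the replicate block 15 members had an unadjusted limma p under 0.05, against 18 in the main fit.
Of 543 single-gene values under alternatives 8 took the opposite sign. Cldn12 went to 0.35 with median-of-ratios scaling, 0.0078 with limma voom and 0.57 with that scaling without MKO_PD1 replicate 2. Cdh2 went to 0.083 and 0.14, and Cxadr to 0.046 in the last of these fits. Without MKO_PD1 replicates 1 and 3, which leaves 1 tumour assumed to vary like the others, Gja4 went to -0.086 and Cldn4 to 1.06. Leaving out 1 library, the ratio Cdh1 over Epcam ranged from -0.77 to 0.32, Cldn4 over Epcam from -0.44 to 0.11, Gjb1 over Gjb2 from -0.074 to 0.32, Cldn5 over Pecam1 from -0.021 to 0.31 and Cldn5 over Cdh5 from -0.29 to 0.094. The cause was not tested.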
